A study of Mus musculus with 6 samples.

Results

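Drd2, Slc6a3, Dlg4 and Lphn3 are 4 genes of dopamine signalling and of the synapse whose hippocampal mRNA was compared here between Nrf2 (+/+) and Nrf2 (−/−) mice. They were chosen by that contrast on these same arrays, since the study lists each of them among the mRNAs that differ between the genotypes. The differences between genotypes are therefore given as descriptions, and no conclusion is drawn from a test of them. The 4 genes are 4 of the 412 listed mRNA features and 4 of the 60915 features on the array that are not controls. Each was read here by the 1 probe that the study's list ties to it, with 1 spot per array, ASMM10P042798 for Drd2, ASMM10P010357 for Slc6a3, ASMM10P048816 for Dlg4 and ASMM10P031931 for Lphn3. Other probes of these genes that did not pass the study's thresholds would carry no name here and were not analysed. All 4 passed the filter on dim probes, which kept the 43528 features with a signal clear of the background on 3 arrays or more.

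The groups were 3 male Nrf2 (+/+) mice (labelled wild type) and 3 Nrf2 (−/−) mice that carry the Nrf2 gene knockout. The paper writes male beside the Nrf2 (+/+) mice only. All mice were of the ICR strain, 3 to 4 months old and given no treatment that the labels name. Total RNA of the hippocampus of each mouse was freed of rRNA, copied with random primers into cRNA carrying the dye Cy3, and hybridized to 1 Arraystar mouse LncRNA array. How the knockout allele was made, and whether the mice were littermates, is not given in the sources used here. Whole hippocampus was measured, so that fewer cells of a type and less RNA per cell cannot be told apart. The probe of Nfe2l2, the gene that encodes NRF2, read 12.40, 11.93 and 12.28 on the log2 scale in the Nrf2 (+/+) replicates 1 to 3 and 7.95, 7.82 and 8.02 in the Nrf2 (−/−) replicates, a difference of −4.27 ± 0.20 (SE, n = 3 per genotype) that followed the labels.

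Drd2 encodes the D2 dopamine receptor, a receptor coupled to inhibitory G proteins that sits on the cells that receive dopamine and, as an autoreceptor, on the dopamine neurons themselves. Slc6a3 encodes the dopamine transporter, which takes released dopamine back into the nerve terminal and which cocaine blocks; its mRNA is made mainly in the cell bodies of midbrain dopamine neurons, whose axons reach the hippocampus. Dlg4 encodes PSD-95, the scaffold that holds glutamate receptors and their signalling partners in the postsynaptic density of excitatory synapses. Lphn3, now named Adgrl3, encodes latrophilin 3, an adhesion G protein-coupled receptor that binds teneurins and FLRT proteins across the synapse. NRF2 is a transcription factor that binds antioxidant response elements in the promoters of its targets.

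Since the mice differ in NRF2, the promoters of the 4 genes were searched for the core of the antioxidant response element, TGACNNNGC, on both strands (GCNNNGTCA on the other strand). The windows were those of RefSeq on GRCm38.p6, 300 bases long, from 250 bases before to 50 bases after each annotated start. Drd2 had 1 window and 1 match, TGACCCCGC, on the strand of the gene and beginning 61 bases before the start. Slc6a3 had 1 window, and Dlg4 and Lphn3 (as Adgrl3) had 3 windows each, with 0 matches in any of them. Over all 32851 windows of this length 12.4% held at least 1 match, so a match is common, and it is a description of letters and not a site. The windows of the dopamine genes are shown because one has the match and the other has not, 5′ to 3′ on the strand of the gene, with the match in capitals; Drd2 lies at chr9:49340153-49340452 and Slc6a3 at chr13:73536497-73536796, both on the plus strand.
Drd2: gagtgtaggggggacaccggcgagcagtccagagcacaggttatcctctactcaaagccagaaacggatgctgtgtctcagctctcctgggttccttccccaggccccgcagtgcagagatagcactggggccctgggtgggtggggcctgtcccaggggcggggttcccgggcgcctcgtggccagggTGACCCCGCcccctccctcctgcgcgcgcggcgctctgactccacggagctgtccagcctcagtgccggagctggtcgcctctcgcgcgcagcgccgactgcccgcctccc
Slc6a3: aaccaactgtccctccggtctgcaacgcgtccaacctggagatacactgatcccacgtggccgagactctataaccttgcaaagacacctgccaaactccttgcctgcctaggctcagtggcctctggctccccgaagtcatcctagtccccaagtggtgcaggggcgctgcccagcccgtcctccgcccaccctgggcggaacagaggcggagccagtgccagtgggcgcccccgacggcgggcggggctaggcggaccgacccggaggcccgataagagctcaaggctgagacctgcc
The share of G and C was 70.3% in the Drd2 window and 66.0% in the Slc6a3 window, against a median of 52.7% over all windows. It ran from 46.3% to 69.0% over the Dlg4 windows and from 58.7% to 75.3% over the Lphn3 windows.

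The arrays of the Nrf2 (−/−) mice were brighter as a whole, which bears on every value below. The median background-subtracted signal was 86.0 to 107 fluorescence units on the Nrf2 (+/+) arrays and 136 to 181 on the Nrf2 (−/−) arrays, and 65.5% to 75.7% of the features of an array were well above background. Signals were therefore made comparable by quantile normalization, which gives every array the same distribution of values. Replicates 1 of both genotypes shared a slide, as did both replicates 3, and the replicates 2 were each on a slide with no other array of this set. With limma on the normalized log2 signals, 544 features (1.25%) were higher and 1156 (2.66%) were lower in Nrf2 (−/−) mice at a fold change above 1.5 with an unadjusted p under 0.05. These are the thresholds of the methods for mRNAs, applied to mRNA and lncRNA features alike; the methods set a higher fold limit for lncRNAs. The balance depended on the scaling, with 1003 higher and 976 lower after a shift of each array to its 75th percentile and 1295 higher and 677 lower after scaling to reference genes. Without Nrf2 (+/+) replicate 2 the calls in both directions were 4382. After Benjamini-Hochberg adjustment 21 features (0.0482%) had a p under 0.05 in limma, and between 0 (replicate block) and 574 (slide as a block) did under the alternatives.

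Drd2 and Dlg4 were higher and Slc6a3 and Lphn3 were lower in the Nrf2 (−/−) hippocampus after normalization, and for each of the 4 genes the 3 arrays of one genotype lay apart from the 3 of the other. Such a gap between the genotypes was present in 4535 of 43366 features with a value on every array (10.5%). The choice of the genes fixed these counts. At the methods' mRNA thresholds 2 of the 4 were higher and 2 lower, and 4 had an unadjusted p under 0.05 in limma and in the methods' test, which the choice of the genes also fixed. After adjustment 0 of the 4 had a p under 0.05 in limma or in the methods' test. The fold changes ran from 1.53 for Dlg4, just inside the limit of 1.5, to 1.71 for Drd2.

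**Figure D1:**
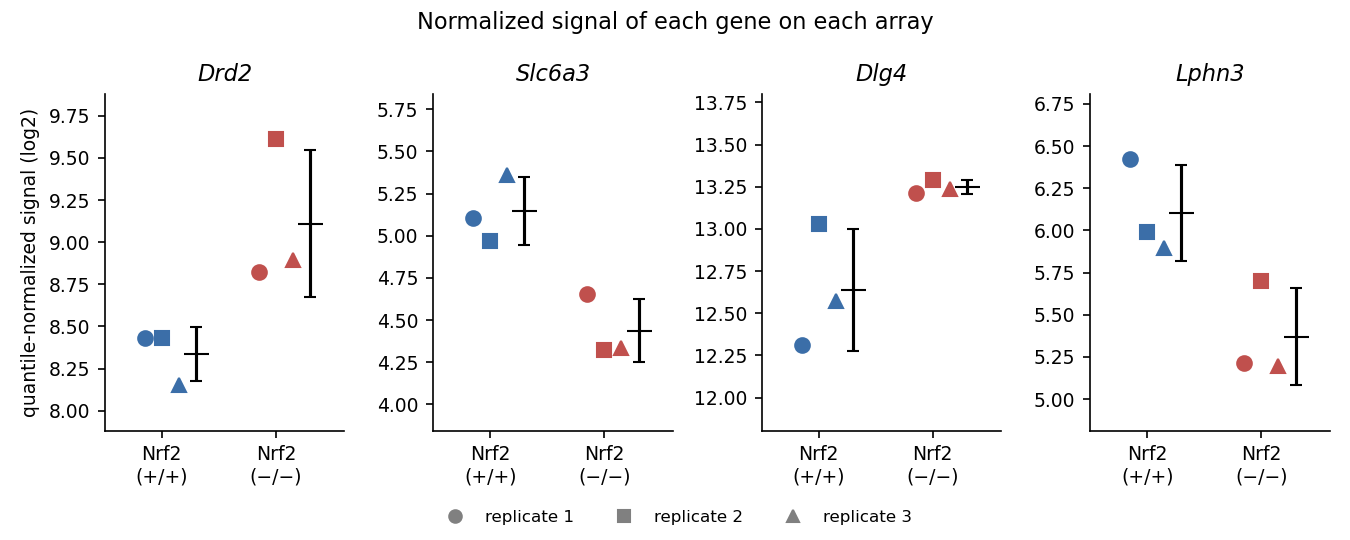
Quantile-normalized log2 signal (vertical axis, 2 log2 units tall in every panel) of each gene on the 3 Nrf2 (+/+) and 3 Nrf2 (−/−) arrays; marker shapes give the replicate and black bars the mean ± SD. Drd2 and Dlg4 sit higher and Slc6a3 and Lphn3 lower in Nrf2 (−/−) mice, with the narrowest gap for Dlg4 (0.18).

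The D2 receptor gene had a clear signal on every array. Drd2 gave background-subtracted signals of 303, 276 and 203 units in the Nrf2 (+/+) replicates 1 to 3. It gave 637, 948 and 524 units in the Nrf2 (−/−) replicates 1 to 3. The lowest Nrf2 (−/−) array was above the highest Nrf2 (+/+) array before any scaling, and Nrf2 (−/−) replicate 2 was well above the other 2. All Nrf2 (−/−) arrays were brighter, and without scaling 18399 of 43528 features were called higher at the methods' mRNA thresholds. The share of all features with such a gap before scaling was not counted. On the normalized log2 scale the values were 8.43, 8.43 and 8.15 in Nrf2 (+/+) mice and 8.82, 9.61 and 8.90 in Nrf2 (−/−) mice. The means were 8.34 ± 0.16 and 9.11 ± 0.43 (SD, n = 3 each), a difference of 0.77 ± 0.26 (SE) or 1.71-fold. Without Nrf2 (−/−) replicate 2 the difference was 0.52, below the 1.5-fold limit, and it was the lowest of the values with 1 array left out. Feature Extraction's own estimate of the error of a Drd2 spot was 10.0% to 10.3% of its signal.

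The dopamine transporter gene was at the edge of what the arrays could measure. Slc6a3 gave 28.6, 26.1 and 26.1 units in the Nrf2 (+/+) replicates and 37.5, 32.0 and 20.7 units in the Nrf2 (−/−) replicates after subtraction of the background. The genotypes overlapped on this scale, and 2 of the 3 Nrf2 (−/−) arrays were brighter than every Nrf2 (+/+) array. The background beside these spots was itself 18 to 27 units. The spot was well above background on 2 of 3 arrays in each genotype, failing on Nrf2 (+/+) replicate 1 and Nrf2 (−/−) replicate 3, and the estimated error of the spots was 20.1% to 33.2% of the signal. Normalization placed the gene lower in every Nrf2 (−/−) mouse, at 4.65, 4.32 and 4.34 against 5.11, 4.97 and 5.36 on the log2 scale. The means were 5.15 ± 0.20 in Nrf2 (+/+) and 4.44 ± 0.19 in Nrf2 (−/−) mice (SD, n = 3 each), a difference of −0.71 ± 0.21 (SE).

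The PSD-95 gene had a strong signal with a small margin between the genotypes. Dlg4 gave 4891, 6499 and 4772 units in the Nrf2 (+/+) replicates and 11572, 12673 and 10516 units in the Nrf2 (−/−) replicates. All 3 Nrf2 (−/−) arrays were brighter than the brightest Nrf2 (+/+) array, each with an estimated spot error of 10.0%. These arrays were brighter as a whole, so the gap before scaling includes that brightness. After normalization the values were 12.31, 13.03 and 12.57 in Nrf2 (+/+) mice and 13.21, 13.29 and 13.24 in Nrf2 (−/−) mice. The Nrf2 (−/−) arrays lay close together and the Nrf2 (+/+) arrays did not, with an SD of 0.04 against 0.36 (n = 3 each), and Nrf2 (+/+) replicate 2 came within 0.18 of the lowest Nrf2 (−/−) array. The means were 12.64 and 13.25, and the difference was 0.61 ± 0.23 (SE). With 1 array left out it ran from 0.45 to 0.80, and the fold change was below 1.5 without Nrf2 (+/+) replicate 1 (1.36) and without Nrf2 (+/+) replicate 3 (1.49).

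The latrophilin 3 gene differed between the genotypes only relative to the other features of its array. Lphn3 gave 72.6, 52.9 and 38.7 units in the Nrf2 (+/+) replicates and 54.7, 74.8 and 38.3 units in the Nrf2 (−/−) replicates. The means of these signals were 54.7 ± 17.0 and 55.9 ± 18.3 units (SD, n = 3 each), nearly the same, and the arrays of the genotypes lay among each other. All 6 spots were well above background, with an estimated error of 12.8% to 19.2%. After normalization the values were 6.43, 5.99 and 5.89 in Nrf2 (+/+) mice and 5.21, 5.70 and 5.20 in Nrf2 (−/−) mice. The means were 6.10 ± 0.28 and 5.37 ± 0.29 (SD, n = 3 each), a difference of −0.73 ± 0.24 (SE), and the gap between the genotypes was 0.19. Without Nrf2 (+/+) replicate 1 the fold change was 1.49, below the limit.

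**Figure D2:**
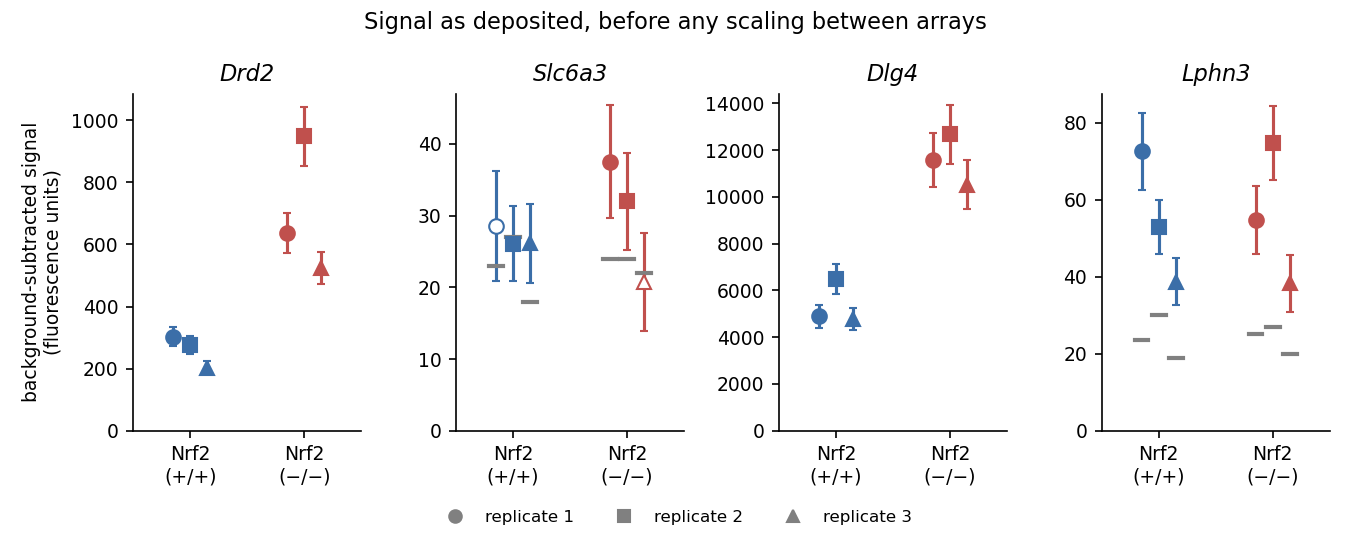
Background-subtracted signal in fluorescence units (vertical axis, from 0, a different range in each panel) of each gene on each array before any scaling between arrays; error bars are the scanner software's error of the spot, open markers are spots not well above background, and grey dashes mark the local background for the dim genes Slc6a3 and Lphn3. The genotypes are apart for Drd2 and Dlg4 and overlap for Slc6a3 and Lphn3, on a scale where the Nrf2 (−/−) arrays are brighter as a whole.

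Without scaling, the direction changed for the lower pair and not for the higher pair. The brighter Nrf2 (−/−) arrays raise the unscaled differences, so only the lower pair could change direction, by construction. With no scaling at all, the median feature was 0.62 higher in Nrf2 (−/−) mice on the log2 scale. On that scale Drd2 was 1.41 and Dlg4 was 1.12 higher, whereas Slc6a3 was 0.12 and Lphn3 was 0.025 higher, which is the other direction from the normalized values. Relative to the median feature, the unscaled differences were 0.78 for Drd2, 0.49 for Dlg4, −0.50 for Slc6a3 and −0.60 for Lphn3. Slc6a3 and Lphn3 were thus lower relative to most features of their arrays and not in units of fluorescence.

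Among scalings that all remove the overall brightness, the directions of the 4 genes were shared and the sizes were not. A shift of each array to its 75th percentile gave 0.81 for Drd2, 0.52 for Dlg4, −0.48 for Slc6a3 and −0.57 for Lphn3, with only Drd2 past 1.5-fold and the Lphn3 arrays of the genotypes overlapping. A shift to the array median gave 0.70, 0.41, −0.59 and −0.68 for the same genes in that order, with Dlg4 at 1.33-fold. Scaling to 15 reference genes spotted on the array, which was added after the data were seen, gave 0.90, 0.61, −0.39 and −0.48, with the median feature at 0.12. There the Lphn3 arrays of the genotypes overlapped, the Slc6a3 gap was 0.011, and Lphn3 (1.40-fold) and Slc6a3 (1.31-fold) were below the limit of 1.5. The normalized differences of those reference genes themselves ran from −0.23 (Tfrc) to 0.77 (Actb), with a median of 0.04. The next highest was 0.19 (Ldhal6b), and Actb was kept in the scaling. A different background model (normexp) with an offset of 50 units added to every signal, before quantile normalization, brought Slc6a3 to −0.25 and Lphn3 to −0.40, with Drd2 at 0.62 and Dlg4 at 0.58, and only Drd2 past 1.5-fold. The offset is as large as the signals of the dim genes and shrinks their log2 differences by construction, so the model and the offset cannot be told apart here. Drd2 was past 1.5-fold under all 6 of these scalings and background models, the unscaled signals included, but not with Nrf2 (−/−) replicate 2 left out or with the slide as a block. Among the other 5 treatments the values spread widest for Slc6a3, from −0.71 to −0.25.

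**Figure D3:**
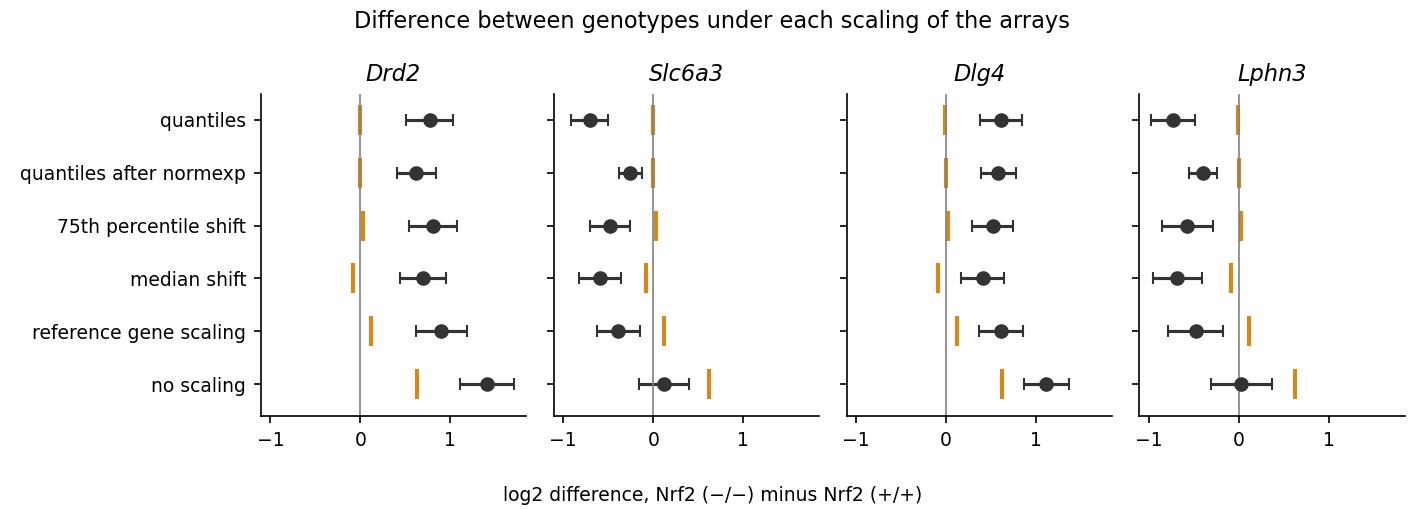
Log2 difference, Nrf2 (−/−) minus Nrf2 (+/+) (horizontal axis), of each gene under 6 treatments of the same spots (rows); points are differences, bars are ± SE from limma and orange ticks mark the median of all tested features under that treatment. Drd2 and Dlg4 lie right of 0 in every row, and Slc6a3 and Lphn3 lie left of the orange tick in every row but right of 0 with no scaling.

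The ratio of a pair of genes on the same array does not depend on any common factor between arrays, although the level of a ratio of different probes has no meaning of its own. The log2 ratio of Drd2 to Lphn3 was 2.06, 2.39 and 2.39 in the Nrf2 (+/+) replicates and 3.54, 3.66 and 3.78 in the Nrf2 (−/−) replicates. Its mean was 1.38 higher in Nrf2 (−/−) mice, with SDs of 0.19 and 0.12 and no overlap. The ratio of Dlg4 to Lphn3 was higher by 1.09, again without overlap. Ratios with Slc6a3 rest on a spot that was not well above background on Nrf2 (+/+) replicate 1 and Nrf2 (−/−) replicate 3. With that limit, the ratio of Drd2 to Slc6a3 was higher by 1.29 without overlap. The ratio of Slc6a3 to Dlg4 was lower by a log2 difference of −0.996 without overlap. Within the higher pair the ratio of Drd2 to Dlg4 differed by 0.29 and the genotypes overlapped, and within the lower pair the ratio of Slc6a3 to Lphn3 differed by 0.09 with overlap. The choice of the genes set the direction of the ratios between the higher and the lower pair, so no conclusion is drawn from them. A ratio also cannot tell which of its genes changed.

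The differences within the slides and scan sessions that held both genotypes are given for their size only, since the gap between the genotypes, which the choice of the genes fixed, also fixes their direction. Drd2 was 0.39 higher on the slide with replicates 1 and 0.74 higher on the slide with replicates 3. Dlg4 was 0.90 and 0.67 higher on these slides. Slc6a3 differed by −0.45 and −1.03, and Lphn3 by −1.21 and −0.70. A slide as a block in limma gave 0.57 for Drd2, 0.78 for Dlg4, −0.74 for Slc6a3 and −0.95 for Lphn3, which leaves out both replicates 2 since each was alone on its slide. In that fit Drd2 was 1.48-fold, below the limit of 1.5. The arrays were also split into 2 scan sessions by the hour of the scan, a cut made here that no label names. The first held Nrf2 (+/+) replicate 1 and Nrf2 (−/−) replicates 1 and 2. The differences in the first and the second session were 0.78 and 0.60 for Drd2, 0.94 and 0.44 for Dlg4, −0.62 and −0.83 for Slc6a3, and −0.97 and −0.74 for Lphn3, each from 3 arrays.

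The place of each gene among the 60915 features of its array gives its abundance in rank terms, with the limit that brightness also depends on the sequence of the probe, so that the genes are not set against each other. Drd2 lay between the 62.1 and 64.9 percentile on the Nrf2 (+/+) arrays and between the 68.5 and 75.2 percentile on the Nrf2 (−/−) arrays. Slc6a3 lay between the 30.3 and 33.8 and between the 25.1 and 27.7 percentile. Dlg4 was among the brighter features in both genotypes, between the 90.7 and 93.2 and between the 93.7 and 94.0 percentile. Lphn3 lay between the 38.9 and 44.3 percentile in Nrf2 (+/+) mice and between the 32.3 and 37.0 percentile in Nrf2 (−/−) mice. Ranked only among the 43528 features kept by the filter, Slc6a3 averaged the 3.26 percentile over the 6 arrays, near the bottom, and Lphn3 the 12.7 percentile.

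For each gene, features of like brightness that differed at least as far in the same direction were counted. The genes differ in size and direction, so the shares are not compared between them. Among the 5645 tested features within 0.5 log2 units of the mean signal of Drd2, 1.65% were at least as much higher in Nrf2 (−/−) mice, Drd2 included. For Dlg4 it was 3.22% of 1989 features. For the dim genes, 5.91% of 2912 features of like brightness were at least as much lower as Slc6a3, and 4.22% of 5826 were at least as much lower as Lphn3. These shares come from the contrast that chose the genes and describe the background only.

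**Figure D4:**
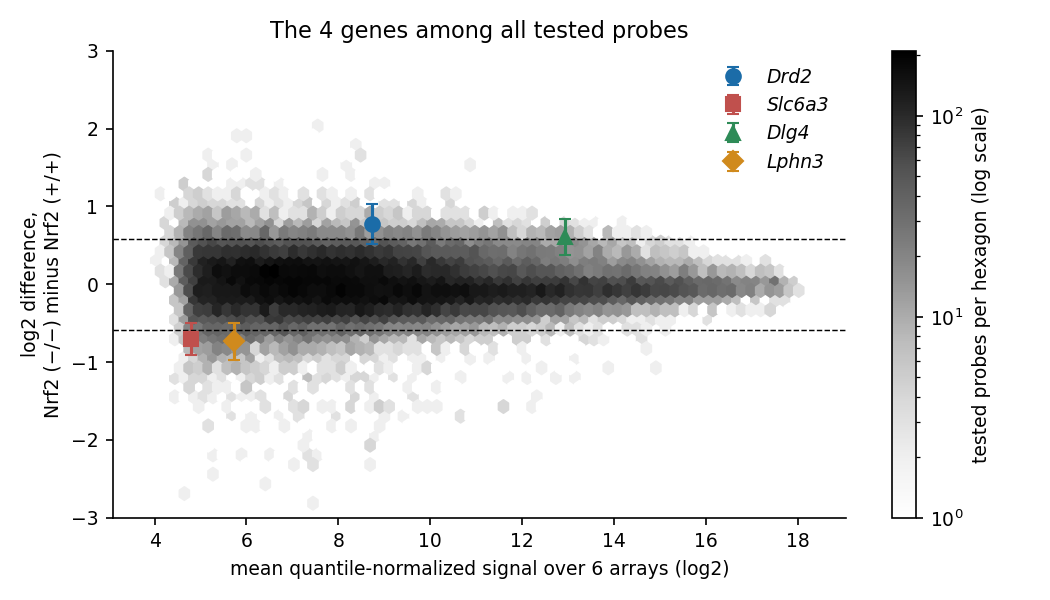
Log2 difference, Nrf2 (−/−) minus Nrf2 (+/+) (vertical axis), against the mean quantile-normalized log2 signal over 6 arrays (horizontal axis) for all tested features (grey hexagons, shade on a log scale; 24 features lie beyond the plotted range) with the 4 genes in colour ± SE and dashed lines at a fold change of 1.5. Slc6a3 and Lphn3 sit at the dim end, Drd2 in the middle and Dlg4 at the bright end, all close to the dashed lines.

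The spread within genotypes, which the choice of genes also favoured where it was small, was ordinary for Drd2 and Dlg4. The residual SD of Drd2 was 0.33, beside a median of 0.32 over features of like brightness, and that of Dlg4 was 0.26 beside 0.27. Lphn3 had 0.28 beside 0.37. Slc6a3 had 0.19 beside 0.42, and 7.66% of features of like brightness had a smaller one.

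After removal of the genotype means, how the 4 genes varied together over the 6 arrays depended on the scaling. With quantile normalization, Drd2 and Lphn3, which differed between the genotypes in opposite directions, were the pair with the highest correlation of these deviations, r = 0.82. Both were highest among the Nrf2 (−/−) arrays on replicate 2, where Drd2 stood 0.50 and Lphn3 0.33 above their genotype means, and without that array r was 0.63. Both were also above their mean on Nrf2 (+/+) replicate 1 and below it on both replicates 3. The other pairs had r between −0.62 (Drd2 and Slc6a3) and 0.15 (Drd2 and Dlg4). Every r with Slc6a3 includes spots not well above background, on Nrf2 (+/+) replicate 1 and Nrf2 (−/−) replicate 3. Under the shift to the 75th percentile the correlation of Drd2 and Lphn3 was 0.91, and all 6 pairs were positive, with 0.022 for Slc6a3 and Dlg4 as the lowest; the 4 pairs that were negative with quantile normalization thus had the other sign. These correlations are descriptions over 6 arrays that share their scaling, and a correlation over both genotypes together is not given because the choice of the genes sets it.

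**Figure D5:**
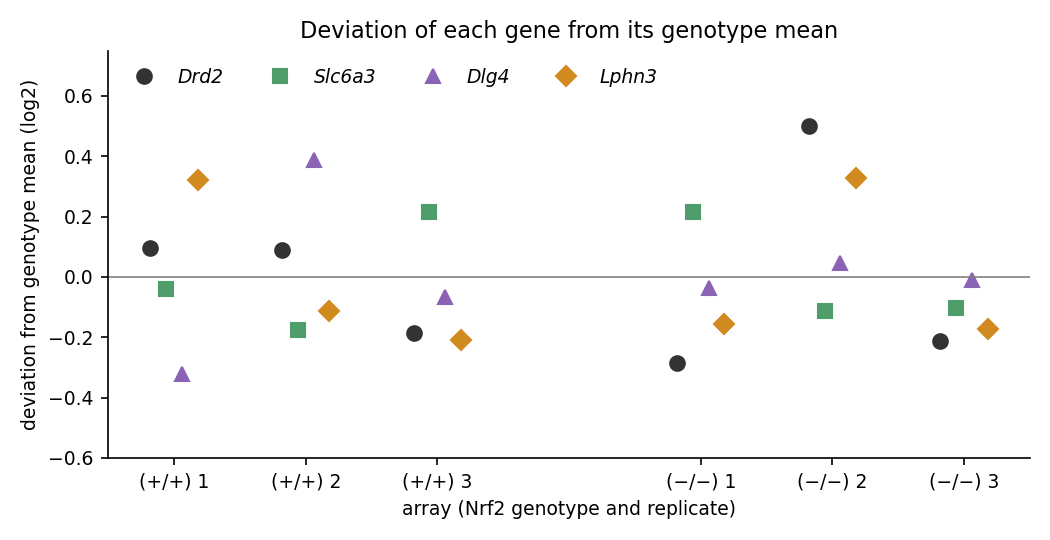
Deviation of the normalized log2 signal from the genotype mean (vertical axis) on each array (horizontal axis, genotype and replicate) for the 4 genes. Drd2 and Lphn3 lie on the same side of 0 on all arrays but Nrf2 (+/+) replicate 2, and highest on Nrf2 (−/−) replicate 2, while Dlg4 spreads over the Nrf2 (+/+) arrays (−0.32 to 0.39) and hardly at all over the Nrf2 (−/−) arrays.

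The features whose deviations were most like those of each gene were taken from 346 features that could be named and were well above background on all 6 arrays, nearly all of them from the list of mRNAs that differ between the genotypes. For Drd2 they were Cyp3a25 (r = 0.97), Angpt1 (0.96) and Lrrc19 (0.96), all lower in Nrf2 (−/−) mice, and the lowest r was that of Camk4 (−0.996). For Slc6a3 they were Ucma (0.93), Ppl (0.87) and Ces5a (0.86), and the lowest was Phf8 (−0.87). The Slc6a3 spot itself was not well above background on Nrf2 (+/+) replicate 1 and Nrf2 (−/−) replicate 3, so these r values rest partly on spots near background. For Dlg4 they were Fkbp5 (0.89), Gnb2 (0.88) and Mael (0.86), and the lowest was Ric3 (−0.996). For Lphn3 they were Prl2b1 (0.997), Ildr1 (0.996) and Mrgprg (0.99), and the lowest was Htra4 (−0.97). With 6 arrays such values also arise among features at large. An r above 0.9 with Drd2 was found for 5.97% of 38480 features, with Dlg4 for 2.97%, with Lphn3 for 1.97% and with Slc6a3 for 0.234%. Among the named features alone the shares were 6.96% for Drd2, 0% for Dlg4, 11.01% for Lphn3 and 0.289% for Slc6a3.

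Other genes of the same pathways could be named only where the study lists them as differing, so their counts are counts of listed genes and say nothing about the rest. The 412 listed mRNA features are 0.676% of the features on the array, and their share among the mRNA features alone is not known here. Of 14 genes of dopamine synthesis, storage and breakdown only Slc6a3 could be named, and of 30 symbols of dopamine receptors and their signalling (older symbols included) only Drd2. Of 18 ionotropic glutamate receptor genes, the receptors that PSD-95 holds, 0 could be named. Of 26 symbols of latrophilins and their ligands only Lphn3 could be named. The postsynaptic density had 4 of 33 genes named, which were Baiap2, Grip1, Iqsec2 and Dlg4, itself chosen by the contrast.

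These postsynaptic genes did not share a direction. Baiap2, which encodes the actin regulator IRSp53 and a partner of PSD-95, was higher like Dlg4, from 10.63 ± 0.25 in Nrf2 (+/+) to 11.28 ± 0.26 in Nrf2 (−/−) mice (SD, n = 3 each). Grip1, which encodes a scaffold that binds AMPA receptors, was lower at both of its listed probes, by log2 differences of −1.56 ± 0.31 and −1.10 ± 0.22 (SE). Iqsec2, which encodes an exchange factor for ARF GTPases in the postsynaptic density, read 12.97, 13.15 and 12.61 in Nrf2 (+/+) and 11.29, 11.86 and 10.97 in Nrf2 (−/−) mice, a difference of −1.54 ± 0.28 (SE). All 3 were chosen by the same contrast, and the differences of Grip1 and Iqsec2 were larger than those of the 4 genes above.

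Few markers of the makeup of the tissue could be named, and only those that the study lists as differing between the genotypes. A marker that did not differ could not appear here, so these values are no check of the makeup. Of 20 markers of hippocampal neurons, Dsp, a marker of dentate granule cells, was the one that could be named. It was above background on all arrays and was lower in Nrf2 (−/−) mice, 7.14 ± 0.48 against 8.87 ± 0.31 (SD, n = 3 each). Of 15 choroid plexus and ependymal markers 2 could be named, and they went opposite ways. Enpp2 was lower by a log2 difference of −2.06 ± 0.48 and Tmem212 was higher by 1.53 ± 0.42 (SE). Of 17 symbols of striatal markers, 15 markers of midbrain dopamine neurons and 22 glial and vascular markers 0 could be named, so whether tissue next to the hippocampus entered a dissection is not known from these values. The part of these markers in the values of Drd2, Slc6a3, Dlg4 and Lphn3 was not tested.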

How the data were processed

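The authors extracted spot intensities with Agilent Feature Extraction 11.0.1.1, which subtracts background and flags spots, and quantile-normalized them in GeneSpring GX. Both the background-subtracted intensity of each spot and 1 log2 signal per probe were deposited. Outlier spots were set to missing, log2 intensities were averaged per probe and quantile-normalized. The result differed from the deposited log2 signals by a median of 0.00097. Depth has no meaning for arrays, and 3 arrays per genotype limit the precision.

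The files give most probes no gene. Probes were named by finding the 1 probe whose fold change and p, recomputed from the deposited log2 signals, equalled an entry of the study's list of mRNAs within a relative tolerance of 1e-04; all 412 entries matched 1 probe each. Those listed values were used for nothing else. Reference genes were named from transcript identifiers in the files.

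Genotypes were compared with limma 3.58.1 (R 4.3.3; lmFit and eBayes) and Benjamini-Hochberg adjustment over 43528 probes, with the methods' fold limit for mRNAs used for every probe because the files class few of them. Simulated data had the same 3 arrays per genotype, with independent noise at the residual SD of each probe. They held no slide effect and no noise shared between probes, so the counts describe that simpler setting. At an adjusted p below 0.05 limma called 0 of 50 probes made to differ 1.5-fold and 1 of 50 at 2-fold. It called 19 of 50 at 4-fold and 44 of 50 at 16-fold. Python 3.11.15 with pandas 2.3.3 was used for the rest. Named genes were the 4 genes, Nfe2l2, the 3 most and 1 least alike per gene, and the members of the fixed lists that could be named. The genes and lists were chosen with earlier results of these data known. Alternatives covered the scaling, background model, filters, test, slide, replicate block and each array left out.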

Additional observations from a re-analysis of the deposited data

How the results depend on the processing

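The differences of the 4 genes were recomputed under 16 alternatives, of which the reference gene scaling and the scan session block were added after the data were seen. For blocks and arrays left out, the gap between genotypes by which the genes were chosen fixes the direction, so it is no sign of stability. With no normalization Slc6a3 (0.12) and Lphn3 (0.025) reversed and Drd2 (1.41) and Dlg4 (1.12) moved, by construction with the brighter Nrf2 (−/−) arrays. Slc6a3 moved to −0.48 with the 75th percentile shift, −0.39 with reference genes and −0.25 with normexp and its offset of 50 units, and Lphn3 to −0.40 with the same; the offset shrinks log2 differences of dim features by construction, and the cause of the other moves was not tested. With 1 array left out the differences ran from 0.52 to 0.91 for Drd2, −0.82 to −0.60 for Slc6a3, 0.45 to 0.80 for Dlg4 and −0.90 to −0.57 for Lphn3. As a replicate block, replicate numbers left them at 0.77, −0.71, 0.61 and −0.73. The sources used here do not say whether the numbers pair the mice. Deviations of same-numbered arrays correlated at −0.15, 0.43 and 0.81. These values cannot decide a pairing, since some same-numbered arrays also shared a slide.

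The 1700 features past the methods' mRNA thresholds became 869 with normexp and the offset, 2621 with the replicate block, 4908 with the slide as a block and 1061 with the methods' test, and 1131 (without Nrf2 (+/+) replicate 3) to 4382 (without Nrf2 (+/+) replicate 2) with 1 array left out. Of the 1700, 32.0% were higher, against 50.7% with the 75th percentile shift 65.7% with reference genes and 98.8% of 18624 with no normalization. The 21 with an adjusted p under 0.05 became 0 with the replicate block, 574 with the slide as a block, 0 with the methods' test, 9 without a filter and 9 with features well above background on all 6 arrays. With 1 array left out they were 8 (without Nrf2 (+/+) replicate 1) to 195 (without Nrf2 (−/−) replicate 2).

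With the 75th percentile shift r was 0.27 for Drd2 and Slc6a3, 0.46 for Drd2 and Dlg4, 0.022 for Slc6a3 and Dlg4, 0.35 for Slc6a3 and Lphn3 and 0.10 for Dlg4 and Lphn3, against −0.62, 0.15, −0.41, −0.42 and −0.38. With 1 array left out r ran from −0.86 to −0.41 for Drd2 and Slc6a3, −0.0096 (without Nrf2 (+/+) replicate 2) to 0.46 for Drd2 and Dlg4, 0.63 to 0.99 for Drd2 and Lphn3, −0.81 to 0.34 (without Nrf2 (+/+) replicate 2) for Slc6a3 and Dlg4, −0.69 to −0.17 for Slc6a3 and Lphn3 and −0.66 to 0.33 (without Nrf2 (+/+) replicate 1) for Dlg4 and Lphn3. Ranked among tested features, the mean percentiles were 54.4 for Drd2, 3.26 for Slc6a3, 90.0 for Dlg4 and 12.7 for Lphn3, lower because dim features were left out. The spread within genotypes stayed within 1.5 times under the 75th percentile shift. Slc6a3 is limited by a signal near background.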
